A study of Mus musculus with 6 samples.

Results

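Janus kinases (JAKs) and signal transducers and activators of transcription (STATs) are the kinases and transcription factors that carry a cytokine signal from its receptor to the nucleus. The genes described here are the kinases Jak1, Jak2, Jak3 and Tyk2 and the factors Stat2, Stat3, Stat5a, Stat5b and Stat6. They were chosen by name, through the gene identifiers of the table, and are 9 of its 56953 genes.

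Expression was measured by bulk RNA sequencing of mouse embryonic fibroblasts (MEFs), the matrix-producing cells that grow out of minced embryos in culture, in 3 libraries labelled WT (wild-type) and 3 labelled GαqKO, with no treatment given in the labels. The study describes the second line as knocked out for Gαq/11, the α subunits that couple receptors to phospholipase C, and both lines were grown in DMEM with fetal serum. It states biological replicates, but whether the libraries of a genotype came from separate embryos or from repeat cultures of 1 line is not given in the sources used here, so p-values measure the spread between these libraries.

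All values are normalized counts, which are the reads counted on a gene divided by 1 size factor per library. They summed to between 11392429 and 11483486 per library, and the reads recovered from 5 of the libraries numbered 9853000 to 12229175. Gnaq, which encodes Gαq, was not lower in the libraries labelled GαqKO, with 1926 ± 36.0 normalized counts (SD, n = 3) against 1691 ± 48.5 in WT, whereas Gna11, which encodes Gα11, stood at 452 ± 28.7 against 2148 ± 29.0. The table does not show whether the Gnaq transcripts carry a disrupted part, so directions below refer to the library labels. The Y-linked gene Ddx3y was at 0 in the 3 libraries labelled GαqKO and at 1197 ± 52.3 in WT, so the lines also differ in a way their labels do not give, and the genotype and other differences between the lines cannot be told apart. Of 8 fibroblast markers, 4 were higher and 4 lower in labelled GαqKO. Col1a1 (log2 fold change -1.53), Fn1 (-0.73), Col1a2 (-0.36) and Vim (-0.32) were lower yet abundant in both groups, S100a4 (1.61) and Pdgfrb (0.23) were higher, Pdgfra stood at 19.6 ± 2.23 in WT and 2320 ± 42.0 in labelled GαqKO, and Thy1 was near 0 in WT (0.696 ± 1.21) and at 64.9 ± 10.1. The 8 fibroblast markers summed to between 81633 and 87488 in WT and between 59039 and 62137 in labelled GαqKO. The 8 blood cell markers summed to between 107.55 and 117.05 and between 69.488 and 104.06, with Ptprc near 0 and Itgam at 0 in both groups. In Itgam 99.1% of exon bases lie inside the span of another gene, so its 0 is not read as absence of its transcript. The 4 endothelial markers summed to between 12.629 and 22.393 and between 15.024 and 25.437. The 5 epithelial markers summed to between 255.48 and 284.63 in WT and between 9.0633 and 20.812 in labelled GαqKO. Cdh1 was most of the epithelial sum in WT, at 238 ± 3.06, and stood at 7.96 ± 2.72 in labelled GαqKO. The part that these differences between the lines have in the results below was not tested.

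As background, a cytokine brings the chains of its receptor together, and the JAKs bound to their cytoplasmic tails phosphorylate each other and the receptor. STAT proteins dock on the phosphorylated receptor, are phosphorylated in turn, dimerise and enter the nucleus, where most dimers bind palindromic sites. In fibroblasts the pathway is known for responses to interferons and to cytokines of the IL-6 family, and SOCS proteins, which are induced by it, switch it off.

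Levels of JAK and STAT transcripts were lower in the libraries labelled GαqKO for 6 of the 9 genes, higher for 2 and not past the threshold for 1. Stat5b fell the most and was the single gene of the 9 past a 2-fold change. Jak2, Stat5a, Stat2, Stat3 and Jak1 fell by smaller amounts, Stat6 and Jak3 rose, and Tyk2 did not pass. In bulk libraries, fewer cells that express a gene and less of its RNA per cell cannot be told apart. Calls are at an adjusted p under 0.05 in limma, fitted to log2(normalized count + 1) over 14096 genes. By the same rule 31.8% of all genes tested were called higher, 34.1% were called lower and 20.7% were called and past 2-fold in either direction. All 9 genes passed the filter on low values, their median log2 fold change was -0.42, and that of all genes tested was -0.01. The groups did not overlap for 8 of the 9, with Tyk2 as the exception, as the plot of normalized counts by library shows. How many of all genes tested had groups that do not overlap was not counted, so this is not read as a trait of the 9 genes.

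**Figure D1:**
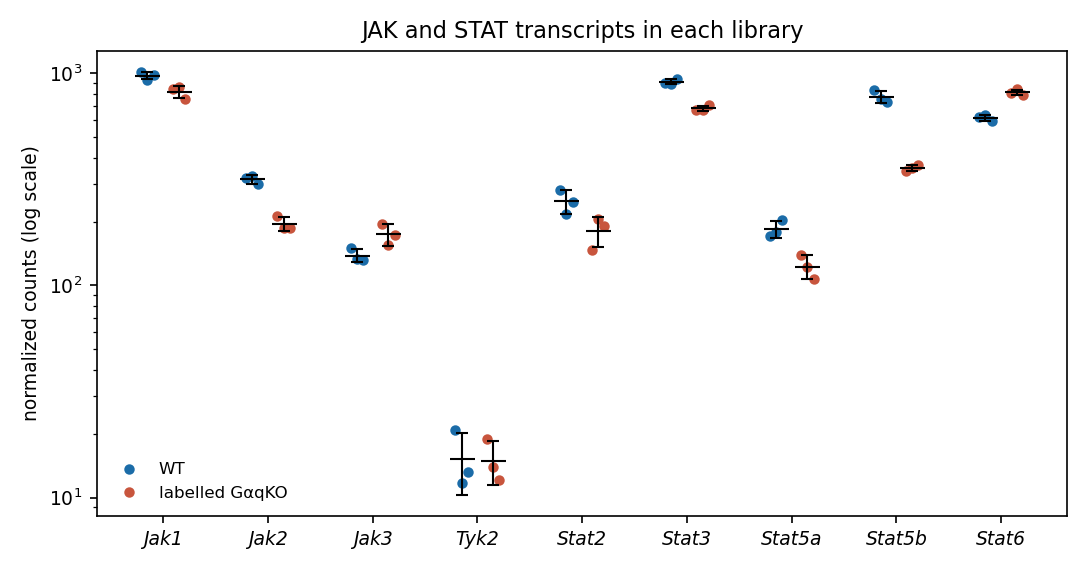
Normalized counts (vertical axis, log scale) of the 9 genes in each library, with WT in blue and labelled GαqKO in red. Points are libraries, and the bars give the mean and SD of 3 libraries. The 3 red points lie below the 3 blue ones for Jak1, Jak2, Stat2, Stat3, Stat5a and Stat5b, above them for Jak3 and Stat6, and among them for Tyk2.

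Among the kinases, Jak2 changed the most. Jak2 serves receptors for growth hormone, erythropoietin, thrombopoietin and prolactin, and the receptor for interferon-γ together with Jak1. Its gene (ENSMUSG00000024789.14) lies at chr19:29228677-29290505 in GRCm39 and shares no exon base with another gene. WT replicates 1, 2 and 3 held 322, 327 and 299 normalized counts, and the libraries labelled GαqKO held 211, 186 and 186. The lowest WT library stood well above the highest of the other group. Jak2 thus went from 316 ± 14.9 to 195 ± 14.5 normalized counts, a log2 fold change of -0.70 (SE 0.094, limma adjusted p = 1.73e-05). The 16 other genes tested within 1 Mb of Jak2 had a median of -0.03, with 5 higher and 6 lower.

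Jak1 is the kinase shared most widely, by receptors for interferons, for the IL-6 family and for cytokines that use the common γ chain. It was the most abundant of the 4 kinases, with 1009, 932 and 986 normalized counts in WT and 839, 858 and 759 in labelled GαqKO. These groups lay close together, and the step from 976 ± 39.7 to 819 ± 52.3 was a log2 fold change of -0.25 (SE 0.061, limma adjusted p = 0.00229). The call was lost in DESeq2 on the recovered reads of 5 libraries (adjusted p = 0.0754, with 0.00108 to 0.0754 over all alternatives). Jak1 (ENSMUSG00000028530.15) lies at chr4:101008838-101122487, and the 859 other genes tested on its chromosome had a median log2 fold change of -0.36, below that of Jak1 itself.

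Jak3 works with the common γ chain of receptors for IL-2, IL-4, IL-7 and IL-15 and is known mainly from blood cells. It was nonetheless counted in each library, with 149, 133 and 132 normalized counts in WT and 195, 155 and 172 in labelled GαqKO. The highest WT library and the lowest of the other group were 149 and 155. The rise from 138 ± 9.60 to 174 ± 20.3 was a log2 fold change of 0.33 (SE 0.124, limma adjusted p = 0.0323). This call had the highest adjusted p of the 8. It held in 10 of 15 alternatives, with adjusted p from 0.0168 to 0.196, and was lost without WT replicate 2 (0.0782), WT replicate 3 (0.0674), GαqKO replicate 1 (0.14) or GαqKO replicate 3 (0.0638) and in DESeq2 (0.196). Jak3 (ENSMUSG00000031805.18) lies at chr8:72123007-72143225, on a chromosome where the median over 802 other genes tested was 0.29. Of its exon bases, 20.7% fall inside the spans of Unc13a, Insl3 and B3gnt3, and 16.3% inside exons of other genes. B3gnt3 went from 1.38 ± 1.60 to 26.7 ± 4.95 normalized counts, Unc13a from 234 ± 20.1 to 199 ± 1.71, and Insl3 was listed at 0. The part of this overlap in the rise of Jak3 was not tested. Il2rg, the common γ chain, stood at 2.02 ± 0.0737 normalized counts in WT and 13.3 ± 4.56 in labelled GαqKO. Of the 8 blood cell markers, Cd68 (93.0 ± 9.91 and 66.9 ± 12.7) made up most of the sum, Csf1r stood at 15.6 ± 4.84 and 11.1 ± 3.56, Adgre1 was at 1.03 ± 1.02 and 3.92 ± 2.64, and their part in the result for Jak3 was not tested.

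Tyk2 pairs with Jak1 at receptors for type I interferons and with Jak2 at receptors for IL-12 and IL-23. It was the least counted of the 9, with 20.9, 11.7 and 13.2 normalized counts in WT and 18.8, 13.9 and 12.1 in labelled GαqKO. The groups overlapped. The log2 fold change was -0.01 (95% interval -0.75 to 0.73, limma adjusted p = 0.978), so a change within that interval was not detectable at this depth. Tyk2 (ENSMUSG00000032175.12) lies at chr9:21015363-21042689, and 92.9% of its exon bases fall inside the span of 1700084C06Rik on the opposite strand, although 6.4% fall inside exons of other genes. 1700084C06Rik itself went from 27.6 ± 6.16 to 71.8 ± 11.9 normalized counts. How reads were assigned where genes overlap is not given in the sources used here, so the level of Tyk2 is uncertain and the part of this overlap was not tested.

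Among the factors, Stat5b and Stat5a both fell. They are close paralogues that act downstream of receptors for growth hormone, prolactin and cytokines of the IL-2 family. Stat5b went from 831, 757 and 732 normalized counts in WT to 347, 358 and 369 in labelled GαqKO. The highest labelled GαqKO library lay far below the lowest WT library. The means were 773 ± 51.7 and 358 ± 11, which is 0.464 times the WT level and a log2 fold change of -1.11 (SE 0.069, limma adjusted p = 6.9e-09). It stayed past 2-fold in each of the 15 alternatives, and between -1.15 and -1.06 when any 1 library was left out. Stat5a went from 171, 178 and 204 to 139, 123 and 107 normalized counts. The means of 184 ± 17.1 and 123 ± 16.1 gave a log2 fold change of -0.59 (SE 0.131, limma adjusted p = 0.0014).

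Reads of the paralogues could in part be exchanged, since their canonical transcripts were 80.4% identical over 3851 aligned bases. Of windows as long as 1 read (150 bases), 4.6% of those of Stat5a occur unchanged in Stat5b and 3.5% the other way. Each gene has 2 RefSeq promoters in GRCm38.p6 (250 bases before the start to 50 after), and 1 pair of them is alike. That pair holds the most similar stretch found between promoters of any of the 9 genes, with a local alignment score of 37. The other pairs of a Stat5b and a Stat5a promoter scored 12, 11 and 8, and the highest score between other genes was 12 (Jak1 with Stat5a). The stretch is shown for its score, and its part in the falls was not tested. The stretch covers bases -57 to -3 before the Stat5b start (chr11:100822573-100822627, minus strand) and bases -66 to -12 before that of Stat5a (chr11:100860418-100860472, plus strand). Capitals mark the 49 of 55 bases (89.1%) that are identical.
Stat5b: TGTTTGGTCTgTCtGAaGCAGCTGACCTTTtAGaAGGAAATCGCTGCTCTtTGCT
Stat5a: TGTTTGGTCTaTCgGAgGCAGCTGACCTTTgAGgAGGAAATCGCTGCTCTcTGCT

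Stat3, which carries signals of the IL-6 family through the shared chain Il6st, fell with little spread between libraries. It held 904, 891 and 939 normalized counts in WT and 673, 668 and 708 in labelled GαqKO. The spread within either group was small, at 911 ± 24.6 and 683 ± 21.6, and the log2 fold change was -0.42 (SE 0.055, limma adjusted p = 1.58e-05). Stat5b (ENSMUSG00000020919.12, chr11:100671556-100741589), Stat5a (ENSMUSG00000004043.15, chr11:100750177-100776065) and Stat3 (ENSMUSG00000004040.17, chr11:100775924-100830450) follow each other within 158895 bases. The 3′ ends of Stat5a and Stat3, which are on opposite strands, share 142 bases. The next gene beyond Stat3, Cavin1, a coat protein of caveolae, stood at 16608 ± 363 and 15253 ± 116 normalized counts, a log2 fold change of -0.12 (SE 0.039, limma adjusted p = 0.013). All 4 genes from Stat5b to Cavin1 were therefore lower, by amounts from -1.11 to -0.12. The 55 other genes tested within 1 Mb of this run had a median of -0.04, with 15 higher and 23 lower. On the whole chromosome, the 1143 genes tested besides Stat3 had a median of -0.11, close to the value of Cavin1.

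Stat2 joins Irf9 in the complex that answers type I and type III interferons. Its libraries held 283, 218 and 247 normalized counts in WT and 147, 205 and 191 in labelled GαqKO. The lowest WT and highest labelled GαqKO libraries nearly met, and the change from 249 ± 32.7 to 181 ± 29.9 was a log2 fold change of -0.46 (SE 0.135, limma adjusted p = 0.00811). The core of the interferon-stimulated response element, read here as GAAA, any 2 bases and GAAA again, was searched on both strands of the 11 RefSeq promoters of the 9 genes, 2 each for Stat5a and Stat5b, and found in that of Stat2 alone. Of 32851 mouse promoters of the same length, 3.44% hold it. The site is shown with its motif in capitals, at bases -222 to -213 before the start in chr10:128270261-128270300 of GRCm38.p6 (plus strand, motif on the minus strand).
Stat2: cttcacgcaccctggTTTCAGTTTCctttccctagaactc

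The general STAT motif TTCNNNGAA reads the same on both strands and was in 0 of the 11 promoters and in 8.3% of all 32851. The motifs are matches of letters in these windows only, and no binding was measured.

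Stat6 was the factor that rose. It is activated by IL-4 and IL-13. Its libraries held 623, 634 and 597 normalized counts in WT and 804, 839 and 793 in labelled GαqKO, a wide gap beside the spread of each group. The change from 618 ± 19.5 to 812 ± 24.5 was a log2 fold change of 0.39 (SE 0.057, limma adjusted p = 3.77e-05). Stat6 (ENSMUSG00000002147.19, chr10:127477821-127496862) and Stat2 (ENSMUSG00000040033.17, chr10:128106352-128128735) lie on the same chromosome, where the other 666 genes tested had a median of -0.28. Within 1 Mb of Stat6 that median was -0.34, with 5 of 65 genes higher and 34 lower. Stat6 thus rose where most of its neighbours were lower, and the 2 factors of this chromosome moved in opposite directions.

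**Figure D2:**
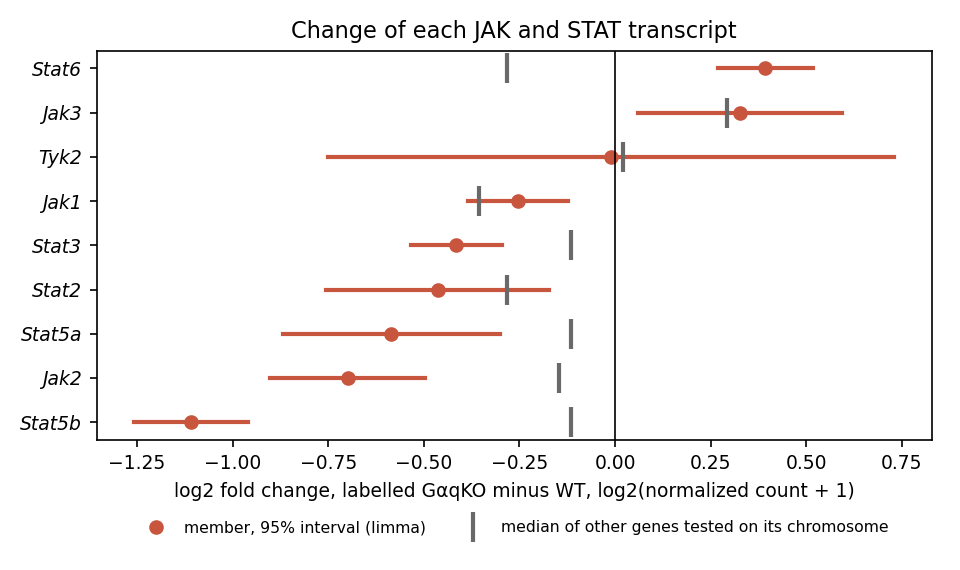
Log2 fold change (labelled GαqKO minus WT, on the log2(normalized count + 1) scale) of each of the 9 genes, with points for the limma estimate and lines for its 95% interval. Grey marks give the median of the other genes tested on the same chromosome: the intervals of Jak1, Jak3, Tyk2 and Stat2 reach that median, and those of Stat6, Stat3, Stat5a, Jak2 and Stat5b do not.

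Levels of different genes can be compared only per length. Per kb of summed exon, Stat5b was the most abundant of the 9 in WT, with 112 ± 7.47 normalized counts per kb. Stat6 (92.4 ± 2.92), Stat3 (90.3 ± 2.43) and Jak1 (90.1 ± 3.66) followed and overlapped each other. Below them came Jak2 at 49.9, Stat2 at 39.5, Stat5a at 22.3, Jak3 at 17.8 and Tyk2 at 1.75 normalized counts per kb, with no overlap between neighbours in the order. In labelled GαqKO the order began with Stat6 at 121 ± 3.66 normalized counts per kb, then Jak1 at 75.6, Stat3 at 67.7 and Stat5b at 51.7, with each apart from the next. Jak2 (30.7), Stat2 (28.7) and Jak3 (22.4) overlapped between neighbours, and Stat5a (14.9) and Tyk2 (1.71) were lowest. On this scale Stat5b went from the top of the order to below Stat6, Jak1 and Stat3. Its top place in WT depends on the length used: per kb of gene span Stat6 (32.5), Stat3 (16.7) and Stat2 (11.14) stood above Stat5b (11.04). The same whole-gene counts were also divided by exon bases outside other genes alone, a length chosen after the data were seen. These values hold only if all reads fell on those bases, which was not tested. By this length Jak1 in WT stood at 109.9 ± 4.47, within the spread of Stat5b (112 ± 7.47), and Jak3 at 22.4. Tyk2, with 620 of its 8745 exon bases left, stood at 24.6 ± 7.96 in WT and 24.1 ± 5.59 in labelled GαqKO.

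**Figure D3:**
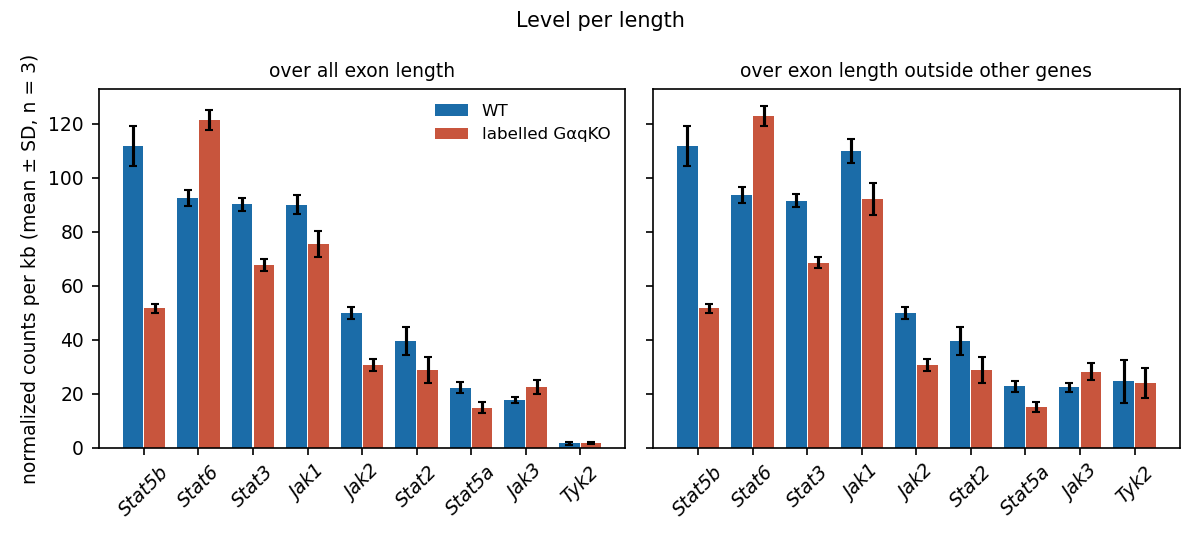
Normalized counts per kb (vertical axis, mean ± SD of 3 libraries) of the 9 genes in WT (blue) and labelled GαqKO (red), over all exon length on the left and over exon length outside other genes on the right. Stat5b is tallest among the blue bars on the left and Stat6 among the red ones, and Tyk2 goes from 1.75 to 24.6 in WT with the choice of length. The counts divided are the same whole-gene counts on both sides.

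Within the families the make-up shifted. Summed per exon kb, the 4 kinases went from 159.5 ± 5.18 to 130.4 ± 7.51 normalized counts and the 5 factors from 356.3 ± 10.7 to 284.4 ± 6.84. Jak2 made up 31.3% ± 1.59 of the kinase sum in WT and 23.6% ± 0.85 in labelled GαqKO, and Jak1 56.5% ± 1.51 and 58.0% ± 2.55. Stat6 made up 26.0% ± 1.07 of the factor sum in WT and 42.7% ± 0.987 in labelled GαqKO, whereas Stat5b went from 31.4% ± 1.25 to 18.2% ± 0.458 and Stat3 from 25.3% ± 1.05 to 23.8% ± 0.929. Stat5b remained the larger part of the STAT5 sum in each library, at 85.3, 83.5 and 81.1% in WT and 74.8, 77.7 and 80.5% in labelled GαqKO.

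Whether members changed unequally was tested on 5 log2 ratios within a library, each normalized count plus 1. With 3 libraries a group the exact permutation test, two-sided, cannot go below p = 0.1, so no ratio could pass 0.05. Stat6 to Stat3 rose the most in value, from -0.56 ± 0.084 to 0.25 ± 0.083 (difference 0.81, exact permutation p = 0.1, 0.167 adjusted over the 5). Stat5a to Stat5b differed by 0.52 and Jak2 to Jak1 by -0.44, and in both the groups did not overlap (exact permutation p = 0.1 each). For Stat5a to Stat5b the groups nearly met, at -1.841 in WT replicate 3 and -1.778 in GαqKO replicate 3. Tyk2 to Jak1 differed by 0.24 (exact permutation p = 0.4) and Stat2 to Stat3 by -0.05 (exact permutation p = 0.9), with groups that overlapped.

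Several receptors that feed the JAKs changed by far more in value than the JAKs and STATs themselves. Of 38 receptor chains listed, 3 (Il10ra, Il10rb and Csf2ra) were listed at 0 in all libraries and 23 were tested, 10 rose, 8 fell and 5 did not pass, with a median log2 fold change of 0.13, and 6 of the rises and 5 of the falls were past 2-fold. Here and in the lists below, the median was the same with genes that had a group at or under the floor set to their bound. For comparison with each list, 31.8% of all genes tested were called higher, 34.1% lower and 20.7% called and past 2-fold. No list was tested against these shares, so its counts are not read as a trait of the list. Ghr, the growth hormone receptor that signals through Jak2 and Stat5b, went from 134 ± 7.10 to 1083 ± 54.0 normalized counts (log2 fold change 3.00, limma adjusted p = 9.67e-13). Il6ra, the binding chain for IL-6, rose from 329 ± 32.2 to 908 ± 61.6 (1.46), Crlf2, which binds TSLP, from 199 to 304 (0.61) and Il12rb1 from 50.8 to 108 (1.07). These receptors thus rose in libraries where Stat5b, Jak2 and Stat3 fell.

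The receptors that fell include chains of the families served by Jak1, Jak2 and Tyk2. Ifnlr1, the specific chain for type III interferons, was at 305 ± 21.2 normalized counts in WT and at 0.9, 0 and 0 in labelled GαqKO, at least 101.5-fold lower against a floor of 3 counts a library. Il13ra1, which joins Il4ra to form the type II IL-4 receptor, fell from 403 ± 26.9 to 38 ± 5.11 (log2 fold change -3.38, limma adjusted p = 8.92e-11). Lifr fell from 330 ± 28.4 to 123 ± 8.88 (-1.42) and Ifngr2 from 779 ± 49.1 to 609 ± 15.6 (-0.35).

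Other chains were named after their values were seen, for their place beside these genes. Il22ra1 went from 77.2 ± 11.8 to 0 in each library, at least 25.7-fold lower. Il13ra2, a decoy receptor for IL-13, was at or under the floor in WT and at 39 ± 8.61 in labelled GαqKO, at least 13.0-fold higher. Il4ra, the chain through which Stat6 is activated, rose from 152 ± 11.4 to 214 ± 17.2 (0.49, limma adjusted p = 0.00164), and Il6st rose from 2886 ± 157 to 3633 ± 155 (0.33, limma adjusted p = 4.82e-05). Il11ra1, at 51.4 ± 9.27 and 19.9 ± 5.36, is the other fall past 2-fold.

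Of 26 cytokine ligands listed, 7 were listed at 0 in all libraries and 11 were tested, of which 4 rose and 5 fell, with a median log2 fold change of 0.09. Il7, a ligand of the common γ chain that acts through Jak1, Jak3 and Stat5, stood at 1.0, 1.9 and 0 normalized counts in WT and 157, 172 and 163 in labelled GαqKO, at least 54.7-fold higher. Il7r, its own receptor chain, was at 2.01 ± 1.01 and 0.336 ± 0.581 and was not tested. Il11, of the IL-6 family, rose from 31.8 ± 11.3 to 71.7 ± 6.82 (log2 fold change 1.21, limma adjusted p = 0.00116). Ctf1 (-0.74) and Il4 (-0.72) fell. Chosen after their values were seen, Il15 went from 0.687 ± 0.595 to 36.6 ± 3.21 normalized counts and Prl2c2 from 4.35 ± 2.06 to 38.1 ± 4.40, and Thpo (-1.90) and Epo (-0.86) fell. Lif, the most abundant of the tested ligands in normalized counts, stood at 555 ± 37.1 and 592 ± 82.3, with a limma adjusted p of 0.414. Of exon bases, 33.1% in Epo, 27.9% in Il7, 26.3% in Ctf1, 20.2% in Thpo, 14.6% in Il4 and 13.8% in Il15 lie inside other genes. The part of this overlap was not tested.

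Negative regulators changed by less. Of 22 listed, 18 were tested, 5 rose and 7 fell, with a median of -0.11, and Dusp3 was the 1 past 2-fold. Dusp3, a dual-specificity phosphatase known to act on STAT5, fell from 922 ± 25.7 to 451 ± 7.20 normalized counts (log2 fold change -1.03, limma adjusted p = 2.23e-09). The tyrosine phosphatase Ptpn1, which acts on Jak2 and Tyk2, rose from 1317 ± 24.1 to 2333 ± 60.3 (0.82). The SOCS proteins bind JAKs or receptors and end the signal, and they did not move as 1 group. Socs1 rose from 275 ± 6.51 to 474 ± 23.8 (0.78) and Socs5 from 2470 ± 112 to 3835 ± 184 (0.63), while Socs7 fell from 1767 ± 190 to 1093 ± 37.0 (-0.69). Of the PIAS proteins, SUMO ligases that restrain STATs, Pias3 rose (0.65) and Pias1 fell (-0.43), and the ubiquitin ligase Cbl fell (-0.47). Sh2b3, an adaptor that restrains Jak2, is the remaining rise (0.29) and was named to complete the count. The direct STAT5 targets Socs2 and Cish, chosen after their values were seen, stood at 55.3 ± 6.59 and 46.7 ± 8.47 and at 10.2 ± 6.20 and 8.82 ± 4.59, with limma adjusted p of 0.305 and 0.867. Exon bases inside other genes were 36.8% in Socs2, 28.6% in Socs1, 25.5% in Dusp3, 22.7% in Cish, 15.2% in Sh2b3 and 13.1% in Pias3. The part of this overlap was not tested.

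Cofactors and adaptors were all tested, and 2 of 15 rose and 6 fell, with a median of -0.10 and none past 2-fold. The falls include Stam (-0.68) and Stam2 (-0.49), which associate with JAKs and sort receptors at endosomes, and the adaptors Gab1 (-0.56) and Grb2 (-0.51) that link receptors to the RAS pathway. Shc1 (0.24) and Hsp90ab1 (0.18), a chaperone that JAKs need, rose. Of the exon bases of Hsp90ab1, 66.5% lie inside other genes.

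Genes known as STAT targets went both ways. Of 27 listed, 3 (Hif1a, Timp1 and Ccl2) were listed at 0, 21 were tested, 9 rose and 8 fell, with a median of 0.09, and 6 rises and 4 falls were past 2-fold. The PIM kinases, which STAT3 and STAT5 induce, were split. Pim1 fell from 213 ± 10.4 to 122 ± 17.1 normalized counts (-0.81) and Pim2 from 163 ± 9.27 to 77.2 ± 18.4 (-1.09), whereas Pim3 rose from 1136 ± 55.0 to 2697 ± 35.5 (1.25, limma adjusted p = 4.71e-11). Bcl2l1, which encodes the survival protein BCL-xL, rose from 927 ± 40.1 to 2276 ± 28.6 (1.30), and Bcl6, a repressor of STAT sites, from 299 ± 13.4 to 585 ± 29.2 (0.97). Bcl3 (-0.36) and Irf1 (-0.32) fell. Igf1, which growth hormone induces through STAT5B and which was chosen after its values were seen, went from 62.4 ± 5.29 to 3.56 ± 2.01 (-3.89, limma adjusted p = 4.08e-07). The STAT5 targets Socs2 and Cish, given above, did not pass the threshold, and a link of Igf1 to Ghr or Stat5b was not tested. The other falls past 2-fold were Icam1, at 21.4 ± 6.10 in WT, and Tnfrsf11b, at 20.9 ± 8.48, both at or under the floor on average in labelled GαqKO.

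Targets known to be induced by interferon did not all move one way, since Isg15 rose and Irf1 fell. Isg15, a ubiquitin-like protein, went from 57.4, 43.7 and 48.9 normalized counts in WT to 224, 284 and 258 in labelled GαqKO (log2 fold change 2.33, limma adjusted p = 9.93e-09). Chosen after their values were seen, Ifit1 went from 12.3 ± 7.08 to 71.2 ± 18.6, Oas1a from 1.71 ± 1.23 to 35.7 ± 10.7, Mx1 from 0.348 ± 0.603 to 16.4 ± 6.14 and Irf9, the partner of Stat2, from 218 ± 20.4 to 388 ± 82.8 (0.81, limma adjusted p = 8.45e-05). The interferon genes Ifnb1, Ifnk and Ifng were listed at 0 in each library. Exon bases inside other genes were 100.0% in Ifnk, 25.9% in Ifng and 0.0% in Ifnb1. The 0 of Ifnk is therefore not read as absence of its transcript. In Isg15 82.0% and in Irf1, Ifit1 and Oas1a 100.0% of exon bases lie inside the span of other genes. So do 69.9% in Bcl3, 30.2% in Pim1 and 28.6% in Igf1. The part of this overlap was not tested.

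**Figure D4:**
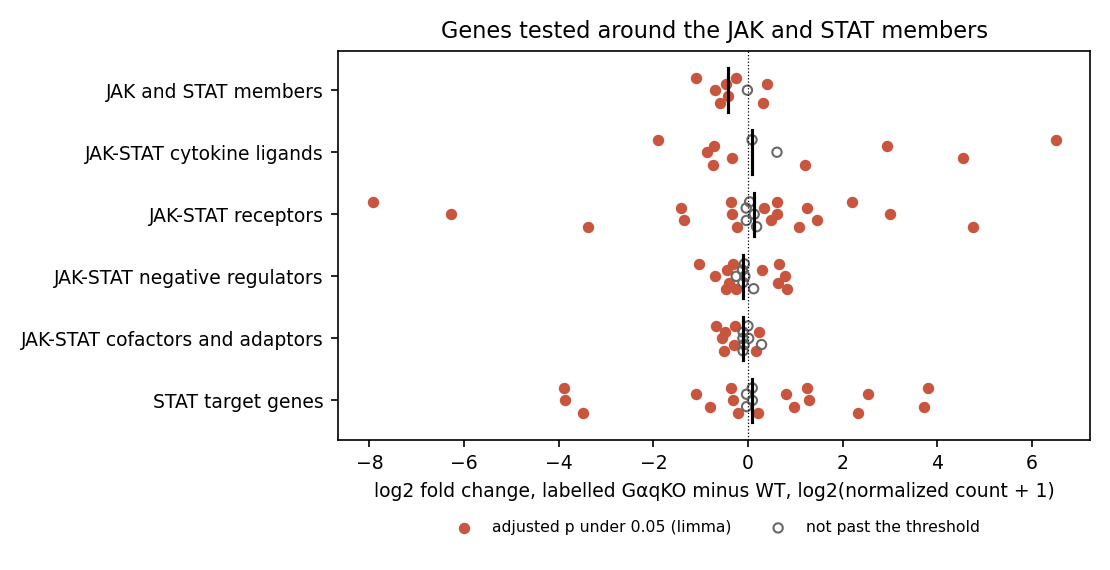
Log2 fold change (labelled GαqKO minus WT, on the log2(normalized count + 1) scale) of each gene tested in the 9 members and the 5 lists around them. Filled points passed an adjusted p under 0.05 in limma, open ones did not, and black lines are medians. The members lie between -1.11 and 0.39, while receptors, ligands and targets spread much further in both directions around medians of 0.13, 0.09 and 0.09. Points of genes with a group at or under 3 counts depend on the pseudocount.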

How the data were processed

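The authors selected poly-A RNA, aligned paired-end reads of 150 bases with Rbowtie2 (GRCm39), and took gene counts by featureCounts (GENCODE M32). The deposited values are a signal, namely normalized counts made by dividing gene counts by 1 size factor per library. Tool versions, the strand setting and the rule for overlapping genes are not given in the sources used here. Rbowtie2 does not split reads over introns, and 32.7% (Tyk2) to 54.8% (Stat5b) of 150-base windows of the canonical transcripts of the 9 genes lie within 1 exon, so levels per length carry that difference.

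Names, coordinates and exon lengths came from GENCODE M39, which matched 56310 of 56953 identifiers (98.9%). limma 3.58.1 (R 4.3.3) was fitted to log2(normalized count + 1) for genes that reached 10 normalized counts in 3 or more libraries. The prior spread had a trend, p-values were adjusted over all these genes by Benjamini-Hochberg, and fold changes on this scale understate those of low genes. Whole reads were recovered from 5 libraries (100% of nonzero values whole multiples of 1 read's worth), not GαqKO replicate 3, and edgeR 4.0.16 and DESeq2 1.42.0 were run on these as alternatives. The floor was 3 counts a library and covers counting error only. Replicate pairs with recovered reads differed by a chi-square per gene of 2.44 to 5.50, above counting noise. Scripts were tested on simulated data.

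The 9 genes, the lists and the rule for names were chosen with earlier results of these data known. The rule took the members, the genes that check the labels, the genes from Stat5b to Cavin1, and in each list up to 4 largest rises and falls among calls with groups that do not overlap and a mean of at least 50 normalized counts. Other genes are marked where they appear, and a few listed genes are left out of the text (not reported here). Sequences are RefSeq promoters of GRCm38.p6, so their coordinates are not those of GRCm39. As alternatives, the scaling, low-value filter, pseudocount, replicate block, prior spread and tool were varied, and each library was left out.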

Additional observations from a re-analysis of the deposited data

How the results depend on the processing

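Over 15 alternatives the count of members that fell was 5 to 6, and 1 member was past 2-fold in each. Jak2, Stat2, Stat3, Stat5a, Stat5b and Stat6 kept their calls in all 15, the closest being Stat5a in DESeq2 (adjusted p = 0.04997, from 0.000473 over the others). The count that rose was 1 in DESeq2 and 1 to 2 with a library left out, as Jak3 lost its call. Tyk2 changed sign without reaching the threshold, at 0.13 in edgeR, 0.11 in DESeq2 and -0.18 to 0.22 with a library left out (0.22 without WT replicate 1, 0.03 without GαqKO replicate 2 and 0.12 without GαqKO replicate 3). The log2 ratio of Stat2 to Stat3 ran from -0.16 to 0.081, with 0.05 without WT replicate 1 and 0.081 without GαqKO replicate 1. Ligands that rose were 1 with at least 10 counts in every library and 1 to 4 with a library left out, and those that fell were 3 in DESeq2 and 3 to 5. Targets that fell were 5 with at least 10 in every library and 4 to 8 with a library left out (4 without WT replicate 1). With 5 libraries the filter on 3 libraries removes genes present in a group of 2 alone. Over all genes, 2918 were past 2-fold, 1596 with at least 10 in every library and 3642 with no filter. Same-numbered libraries did not deviate together (correlations -0.0453, -0.148 and -0.0638), and a replicate block gave 4324 higher and 4638 lower genes in place of 4479 and 4800, with no member's call changed. Per kb of gene span in place of exon, members in WT stood between 0.558 (Tyk2) and 32.5 (Stat6) normalized counts. Depth limits Tyk2, at 11.7 to 20.9 counts.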

Other observations

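Genes inside other genes were often at 0. Of 643 protein-coding genes with at least 90% of exon bases inside the span of genes on the opposite strand, and under 10% inside their exons, 456 (70.9%) were listed at 0 in all libraries. The share was 25.2% (2901 of 11516) where no exon base lies inside another gene, and a mean of at least 50 normalized counts was reached by 13.4% and 37.9%. Genes with some but under 90% of exon bases inside other genes went the other way, with 4.4% listed at 0 and 66.9% at a mean of at least 50. Hif1a, Timp1 and Csf2ra, each with 100.0% of exon bases inside other genes, were listed at 0, as was Il10rb with 69.4%. Irf1 and Ifnar2 also have 100.0% inside and stood at 728 ± 41.5 and 134 ± 6.91 normalized counts in WT. These genes were chosen after their values were seen. A listing at 0 of such a gene is therefore not reported as absence of its transcript.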
